A study of Homo sapiens with 38 samples.

Results

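T47D cells, an established line of luminal, hormone-receptor-positive human breast cancer, were exposed to the EZH2 degrader MS177, and their polyadenylated transcripts were compared with those of cells given vehicle. The data are 4 of the 38 samples of the series, taken by their labels: 2 libraries of cells given 2.5 uM MS177 and 2 libraries of cells given 0.125% DMSO. RNA of both groups was taken after 48 h, and both grew in the same medium with serum and insulin. Nothing in the labels ties the 2 libraries of a group to different cultures. The p-values therefore measure the spread between these libraries, which may be technical.

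MS177 is a proteolysis-targeting chimera, a molecule that binds its target with one end and a ubiquitin ligase with the other so that the target is sent to the proteasome. EZH2 carries the enzyme activity of polycomb repressive complex 2 (PRC2), which methylates histone H3 and keeps developmental genes silent. FOXM1 is a transcription factor of dividing cells that, together with the MYBL2 and MuvB proteins, switches on genes of mitosis, while E2F factors switch on genes of DNA replication. In luminal breast cancer, growth also rests on the estrogen receptor and its target genes. Counts of transcripts do not measure protein, so the removal of EZH2 protein cannot be read from them.

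The MS177 libraries held 37193034 and 33523545 reads over the listed genes, and the DMSO libraries 40430512 and 33548889. Levels below are normalized counts, that is, reads divided by a size factor per library, listed as replicate 1 and replicate 2. The table lists 18573 genes, and 17370 reached 10 normalized counts in at least 2 libraries. All 16 luminal markers were detected, and 1 (ELF3) was at least 2-fold higher in both MS177 libraries than in both DMSO libraries, against 4.85% of all genes. The list summed to 2.29% and 1.43% of the MS177 libraries and 1.70% and 1.65% of the DMSO libraries. The luminal keratin KRT19 stood at 267967 and 112067 normalized counts with MS177, against 113549 and 114742 in DMSO, and the luminal transcription factor GATA3 at 37575 and 22559 with MS177, against 34589.9 and 33545 in DMSO. Of 18 basal and mesenchymal markers 13 passed the filter, and KRT5 and KRT14, the defining basal keratins, were not among the listed genes. Of the 13, 1 was at least 2-fold higher and 0 lower, and by any amount 6 were higher and 3 lower. The joint limma fit of 9 T47D libraries described below passed 3 as higher and 0 as lower (8.51% and 9.48% of all genes). The 2-fold higher one, the basal keratin KRT17, stood at 811 and 226 with MS177, against 7.52 and 11.2 in DMSO. The basal list summed to 0.0120% and 0.0158% of the MS177 libraries, and 0.0142% and 0.0137% of the DMSO libraries. Of 12 markers of fibroblasts, endothelium and blood 4 passed at low counts, and PECAM1, PTPRC and COL1A2, which define endothelium, leukocytes and fibroblasts, were not listed.

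The MS177 libraries stood far apart from each other. Of the 17370 genes 6519 (37.5%) differed at least 2-fold between MS177 replicates 1 and 2, against 564 (3.25%) between the DMSO replicates. The median absolute log2 ratio was 0.76 between the MS177 libraries and 0.14 between the DMSO libraries. The difference between the MS177 libraries moved with merged exon length, the bases of all annotated exons of a gene together. This measure can exceed the length of any single transcript. Across 13497 protein-coding genes in 10 equal groups by merged exon length, the median log2 ratio of MS177 replicate 1 over the DMSO mean was 0.86 in the shortest group and -0.52 in the longest. For MS177 replicate 2 the same medians were -0.21 and 0.22, and for DMSO replicate 1 over replicate 2 they were -0.14 and 0.15. Of 16722 genes with a known length, 5039 differed at least 2-fold between the MS177 libraries after the values were centred on length, against 6237 of the same genes before. The part of RNA quality in the gap was not tested. CPM scaling in place of the size factors lowers the median ratio of MS177 replicate 1 over all genes to -0.37.

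**Figure D1:**
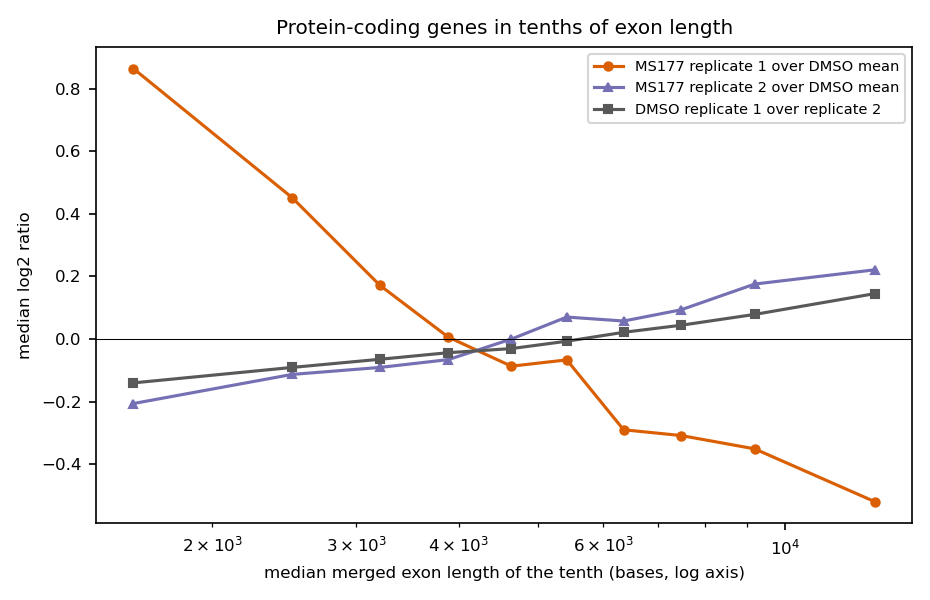
Median log2 ratio (y axis) of 13497 protein-coding genes in 10 equal groups by merged exon length (x axis, bases, log scale). MS177 replicate 1 over the DMSO mean goes down with length, whereas MS177 replicate 2 and the DMSO pair go slightly up.

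Because of this gap, each MS177 library was set against both DMSO libraries. MS177 replicate 1 had 3255 genes at least 2-fold higher and 3335 at least 2-fold lower than both DMSO libraries, and MS177 replicate 2 had 1490 and 1574. In both MS177 libraries 842 genes (4.85%) were at least 2-fold higher after 1 was added to each count and 916 (5.27%) at least 2-fold lower. These 842 genes are 25.9% of those of replicate 1 and 56.5% of those of replicate 2, and the 916 genes are 27.5% and 58.2%. The 2 comparisons share their DMSO libraries. Without a minimum fold, 27.5% of genes lay higher and 28.2% lower in both MS177 libraries than in both DMSO libraries.

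In the test across all genes (limma on the deposited log2 values, two-sided, Benjamini-Hochberg adjustment), 0 of 18146 genes passed an adjusted p of 0.05 (0%). At an unadjusted p under 0.05 there were 3247 genes, limma voom on the recovered reads also passed 0, and the smallest adjusted p was 0.124. A gene is therefore called neither risen nor fallen below, and its values are given instead. A joint fit let 9 T47D libraries of the series share 1 estimate of the spread (MS177, MS177-N2, C24, DMSO and 1 library of MS177-N1). In it, 1479 of 17373 genes (8.51%) passed as higher and 1647 (9.48%) as lower with MS177. That fit takes the MS177 libraries to vary like the others, although they vary more, and its adjusted p is marked as coming from the joint fit.

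**Figure D2:**
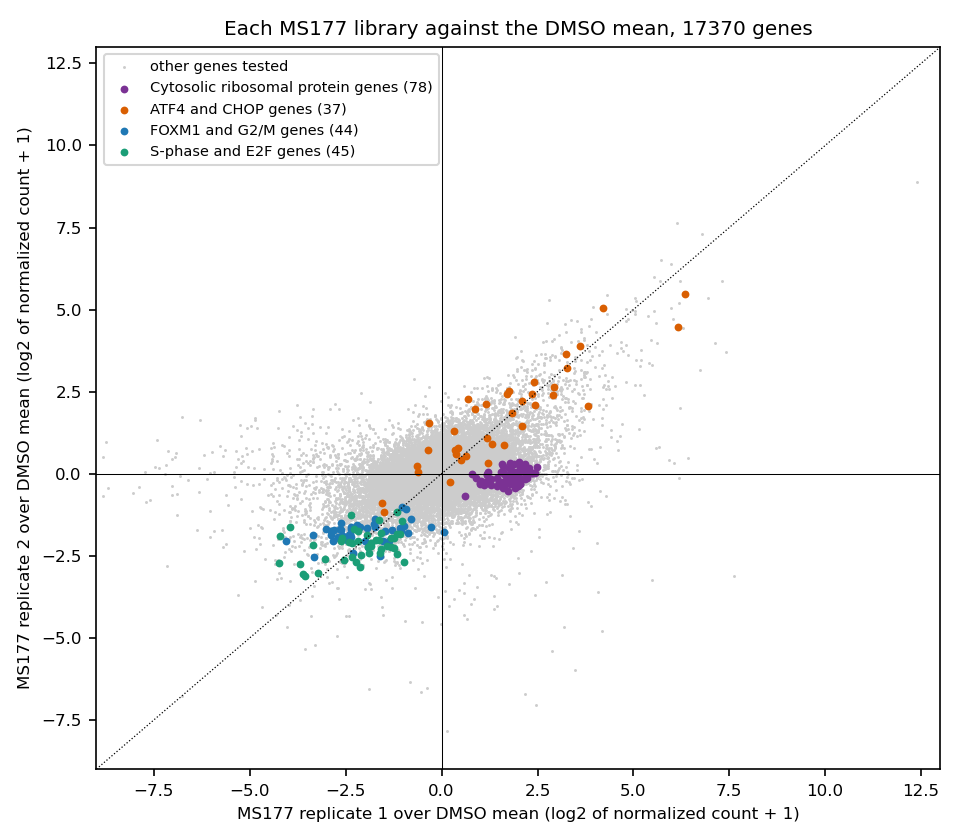
Log2 ratio to the DMSO mean of each of 17370 genes in MS177 replicate 1 (x axis) and MS177 replicate 2 (y axis), with 4 gene lists in colour and a dotted line of equal ratios. Replication and mitosis genes lie low and ATF4 and CHOP genes mostly high in both libraries, and ribosomal protein genes lie high in replicate 1 alone.

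PRC2 transcripts showed no common direction. EZH2 (hg38 chromosome 7, 148807383 to 148884321) stood at 1583 and 1856 normalized counts with MS177, against 1472 and 1432 in DMSO, a log2 difference of 0.24 ± 0.26 (SE; limma adjusted p = 0.651). The ratio to the DMSO mean was 1.09 in MS177 replicate 1 and 1.28 in replicate 2, so no loss of the EZH2 transcript was seen in either library. EZH1, the other catalytic subunit, stood at 917 and 1266 with MS177, against 1103 and 1117 in DMSO, and the MS177 values lay on either side of the DMSO values.

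EED, which reads the methylated histone and activates the enzyme, stood at 1001 and 818 normalized counts with MS177, against 1594 and 1767 in DMSO, 1.85-fold lower on average with a log2 difference of -0.88 ± 0.27 (SE; limma adjusted p = 0.227). Both MS177 values lay under both DMSO values, and the joint fit gave an adjusted p of 0.0204 (limma). SUZ12, the scaffold subunit, stood at 2829 and 3465 with MS177, against 4149 and 4246 in DMSO (adjusted p = 0.462, limma). The accessory subunit PHF19 stood at 1233 and 1289.6 with MS177, against 3003 and 2855 in DMSO, and PHF1, its relative, at 3109 and 2437 with MS177, against 1103 and 1115 in DMSO. They were the only 2 of 12 PRC2 genes at least 2-fold apart in both MS177 libraries, PHF19 lower and PHF1 higher (5.27% and 4.85% of all genes). After centring on exon length 0 were 2-fold lower. PHF1 shares exon sequence with a gene on the opposite strand. RBBP4, a histone-binding subunit shared with other complexes, stood at 1037 and 3099.9 with MS177, against 4434 and 4414 in DMSO, far lower in MS177 replicate 1 than in replicate 2.

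Genes of mitosis were lower in both MS177 libraries almost throughout. Of 44 tested FOXM1 and G2/M genes 37 were at least 2-fold lower in both MS177 libraries and 0 higher, against 5.27% and 4.85% of all genes. By any amount 43 of the 44 lay under both DMSO libraries. The median log2 ratio of the list was -2.33 in MS177 replicate 1 and -1.75 in replicate 2, beside -0.01 for all genes in each library. These genes have a median exon length of 4136 bases, beside 4355 bases for all genes. In bulk RNA, fewer dividing cells and less of a transcript per cell cannot be told apart.

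FOXM1 itself (hg38 chromosome 12, 2857681 to 2877155) stood at 1991 and 2428 normalized counts with MS177, against 7832 and 7584 in DMSO, 3.49-fold lower on average, with a log2 difference of -1.80 ± 0.28 (SE; limma adjusted p = 0.131). The MS177 values lay close together and far under the DMSO values, and the joint fit gave an adjusted p of 0.00248 (limma). FOXM1 shares exon sequence with a gene on the opposite strand, and whether reads were counted by strand is not given in the sources used here. Its partner MYBL2, a transcription factor of the same complex, stood at 4833 and 3012 with MS177, against 12620.0 and 12503 in DMSO.

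Mitotic kinases showed the same order of values. PLK1, which drives spindle assembly, stood at 1551 and 2405 normalized counts with MS177, against 7239 and 7037 in DMSO. CDK1, the kinase that starts mitosis, stood at 1297 and 1212 with MS177, against 6062 and 6853 in DMSO, with nearly equal ratios of 0.201 and 0.188 to the DMSO mean. AURKA, a kinase of the spindle poles, stood at 1258 and 1835 with MS177, against 6739 and 6736 in DMSO. In all 3 the MS177 libraries did not overlap the DMSO libraries.

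Genes of cytokinesis and of the kinetochore were lower in both libraries as well. ANLN, a scaffold of the cleavage furrow, stood at 647 and 2604 normalized counts with MS177, against 11158 and 10335 in DMSO, and KIF20A, a kinesin of cytokinesis, at 370.4 and 1046 with MS177, against 3894 and 3691 in DMSO. CENPI, a kinetochore protein, stood at 42.2 and 73.4 with MS177, against 477 and 386 in DMSO. The proliferation marker MKI67 stood at 1231 and 2130.0 with MS177, against 10359 and 7326 in DMSO. In ANLN and KIF20A MS177 replicate 1 lay well under replicate 2, yet replicate 2 was still under both DMSO libraries by more than 2-fold.

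A few members did not follow. PTTG1 (securin), a regulator of sister chromatid separation, stood at 5014 and 1396 with MS177, against 4467 and 5146 in DMSO, so that MS177 replicate 1 lay between the DMSO values. BIRC5, an inhibitor of apoptosis needed in mitosis, stood at 5383 and 2102 with MS177, against 6104 and 6831 in DMSO, lower than DMSO by a wide margin in replicate 2 alone. CDC20, CDC25B, CDC25C, CENPA and KIF20B were lower in both MS177 libraries, but by less than 2-fold in at least 1.

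The promoters of mitotic genes are known to carry the cell-cycle homology region (CHR), the sequence through which MuvB complexes bind. Stretches upstream of the start of 4 genes of the list are printed to show it, from RefSeq on GRCh38.p14, read 5′ to 3′ on the gene's strand. The capitals mark TTTGAA on either strand (TTCAAA where it is reversed). CENPI, also looked at, held no such letters in the 250 bases before its start. In PLK1 and in CCNB2 (cyclin B2, an activator of CDK1) the letters begin 29 bases before the start. The stretches lie at chr16:23678809-23678888, plus strand (PLK1), chr15:59105066-59105145, plus strand (CCNB2), chr7:36389782-36389861, plus strand (ANLN) and chr14:55191652-55191731, minus strand (DLGAP5, a spindle protein).
PLK1: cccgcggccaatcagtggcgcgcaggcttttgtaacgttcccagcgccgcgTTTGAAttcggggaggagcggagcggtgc
CCNB2: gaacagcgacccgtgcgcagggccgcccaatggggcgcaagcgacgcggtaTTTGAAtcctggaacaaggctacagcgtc
ANLN: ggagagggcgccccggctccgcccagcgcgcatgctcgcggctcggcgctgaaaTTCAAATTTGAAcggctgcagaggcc
DLGAP5: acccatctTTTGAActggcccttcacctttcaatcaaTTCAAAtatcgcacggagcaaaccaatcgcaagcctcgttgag

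Within 250 bases before to 50 bases after the start, 24 of 38 promoters of the list with a RefSeq entry (63.2%) held TTTGAA on either strand, against 1108 of 11531 promoters of tested genes (9.61%). CCAAT, the box bound by NF-Y and often found beside the CHR, was in 29 of the 38 (76.3%) and in 36.7% of all. Among the genes at least 2-fold lower in both MS177 libraries, 121 of 621 promoters (19.5%) held TTTGAA, and among those at least 2-fold higher 76 of 533 (14.3%). A match is a run of letters and not a bound site. The list holds known mitotic genes, so its share describes the list and not the response to MS177. Its members also count among the 2-fold lower genes. CCNB2 stood at 1771 and 1318 normalized counts with MS177, against 4218 and 4409.6 in DMSO, and DLGAP5 at 523 and 709.7 with MS177, against 2885 and 2907 in DMSO.

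DNA replication genes were lower in both libraries as well. Of 45 tested S-phase and E2F genes 43 were at least 2-fold lower in both MS177 libraries and 0 higher, and all 45 lay under both DMSO libraries by some amount. The median log2 ratio was -1.94 in MS177 replicate 1 and -2.18 in replicate 2. Their median exon length, 4386 bases, lies close to that of all genes.

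MCM10, a factor that starts the replication helicase, stood at 229.7 and 341 normalized counts with MS177, against 2810.1 and 2879.5 in DMSO, 9.97-fold lower on average with a log2 difference of -3.25 ± 0.31 (SE; limma adjusted p = 0.124). CDC6, a licensing factor, stood at 461 and 625 with MS177, against 3780.0 and 3787 in DMSO, and MCM5, a subunit of the helicase, at 727 and 640.3 with MS177, against 3784 and 3604 in DMSO. PCNA, the sliding clamp of DNA polymerase, stood at 1827 and 1331 with MS177, against 8036 and 9059 in DMSO. No MS177 value came near a DMSO value in these genes.

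Genes that supply deoxynucleotides were among the lower ones. RRM2, the regulated subunit of ribonucleotide reductase, stood at 769 and 888 normalized counts with MS177, against 7317 and 7089 in DMSO, 8.70-fold lower on average (adjusted p = 0.124, limma; 0.00112 in the joint fit). RRM1, its large partner, stood at 1198 and 1617 with MS177, against 5429 and 5516 in DMSO, and the thymidylate synthase TYMS at 962 and 822 with MS177, against 2807 and 3000.0 in DMSO. The ratio to DMSO in RRM2 was nearly equal in the MS177 libraries, at 0.107 and 0.123.

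E2F transcription factors were themselves low. E2F2, an activator, stood at 108 and 148 normalized counts with MS177, against 1436 and 1121 in DMSO, and E2F1 at 951 and 574 with MS177, against 4021 and 4233 in DMSO. E2F7 and E2F8, repressors that close the S phase, were lower too, E2F7 (57.4 and 284 with MS177, 1181 and 968 in DMSO) and E2F8 (38.7 and 197 with MS177, 625 and 605 in DMSO). UHRF1, which guides DNA methylation at forks, stood at 447 and 860.4 with MS177, against 5973 and 5596 in DMSO, and the methyltransferase it recruits, DNMT1, at 2877 and 2855 with MS177, against 6462 and 6324 in DMSO. In E2F7, E2F8 and UHRF1 MS177 replicate 1 was again the lower of the MS177 libraries. The exceptions to the 2-fold separation were the checkpoint mediator CLSPN (639 and 195 with MS177, 1231 and 1290.2 in DMSO) and cyclin E1, CCNE1 (189 and 143 with MS177, 373 and 398 in DMSO).

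The promoter of E2F2 shows the E2F site TTTNGCGC, marked by capitals where it occurs on both strands with an overlap. MCM10, RRM2, UHRF1 and CDC6, also looked at, held no such letters in the 250 bases before the start. The stretch is RefSeq's, GRCh38.p14, chr1:23531234-23531313, minus strand.
E2F2: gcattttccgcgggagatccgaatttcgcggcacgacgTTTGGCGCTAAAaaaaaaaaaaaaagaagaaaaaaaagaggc

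Of the 38 promoters of this list with an entry 15 (39.5%) held TTTNGCGC on either strand, against 343 of 11531 tested genes (2.97%). Only 1 of the 38 held the CHR letters TTTGAA. Known S-phase and E2F genes make up this list, so these shares describe the list and not the response to MS177. Most members also count among the 2-fold lower genes. Among the genes at least 2-fold lower in both MS177 libraries 7.25% held the E2F letters, and among those at least 2-fold higher 1.69%.

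**Figure D3:**
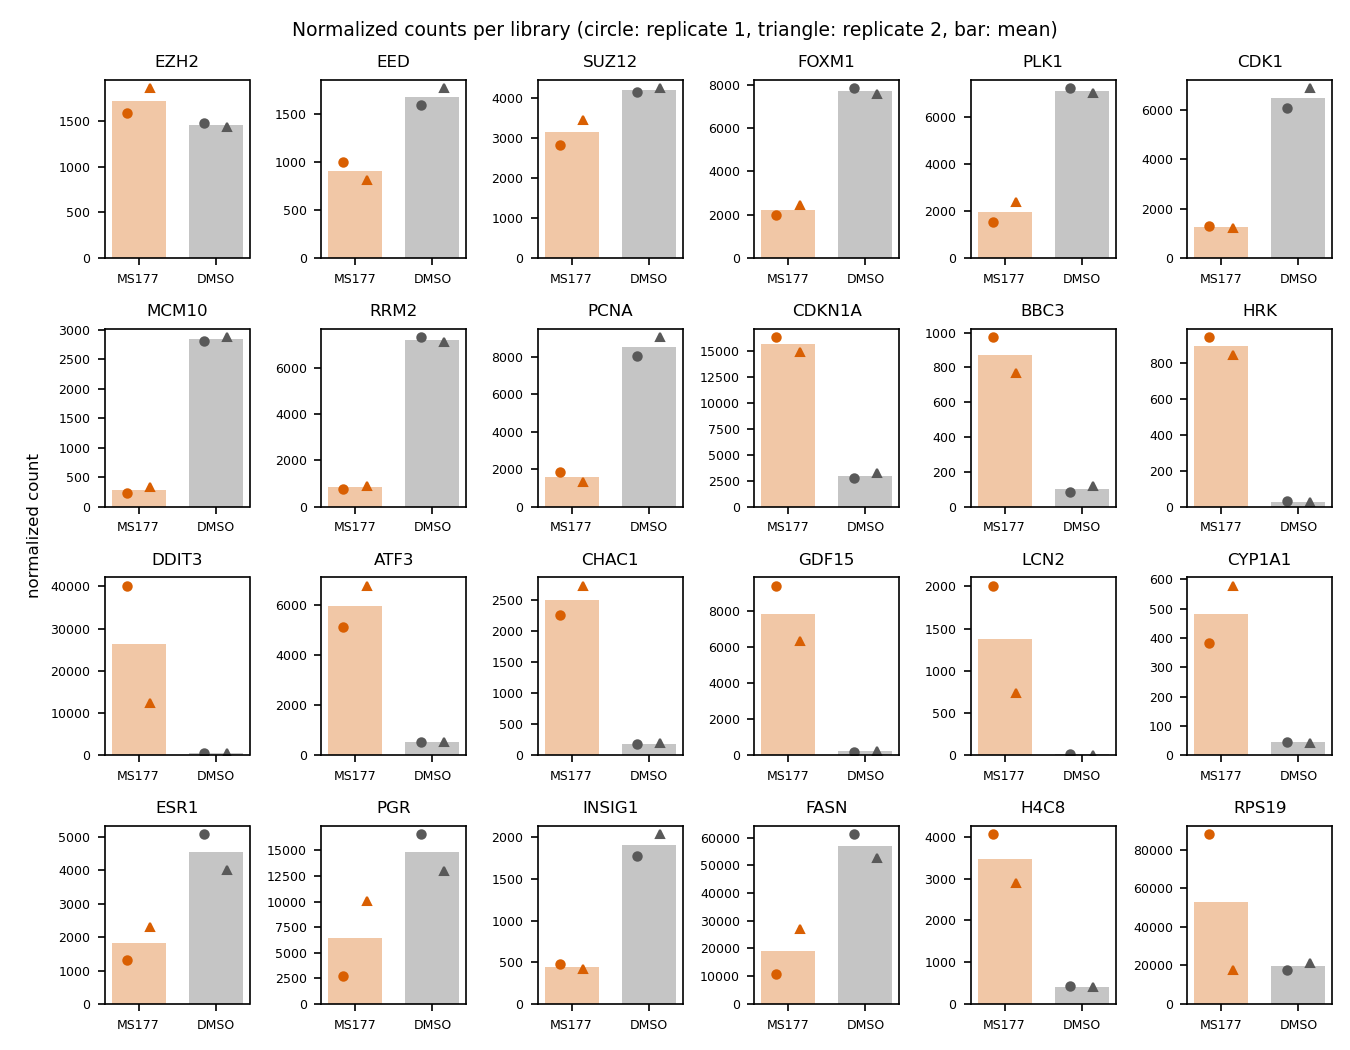
Normalized counts (y axis, from 0) of 24 genes in the MS177 libraries (orange, left) and the DMSO libraries (grey, right), with the bar at the mean of 2 libraries. Replicates agree closely for FOXM1, RRM2 and CDKN1A, and MS177 replicate 1 is far from replicate 2 for DDIT3, PGR and RPS19.

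CDK inhibitors and growth arrest genes were mixed, with a high part. Of 32 tested genes 10 were at least 2-fold higher in both MS177 libraries and 2 lower (4.85% and 5.27% of all genes). With CPM scaling 6 in place of the 10 were higher. CDKN1A, the inhibitor p21, stood at 16296 and 14907 normalized counts with MS177, against 2775 and 3205 in DMSO, 5.22-fold higher on average with a log2 difference of 2.38 ± 0.28 (SE; limma adjusted p = 0.124). GADD45A, a growth arrest gene, stood at 1654 and 1344 with MS177, against 332 and 313 in DMSO, and the stress gene SESN2 at 6531 and 6882 with MS177, against 1283 and 1250.4 in DMSO. In CDKN1A and SESN2 the MS177 replicates differed by little, and the joint fit gave adjusted p-values of 0.00121 and 0.00121 (limma).

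Not all members separated. MDM2, a ubiquitin ligase, stood at 3818 and 5311 with MS177, against 3906 and 3966 in DMSO, with MS177 replicate 1 close to DMSO and replicate 2 higher. The lower members were the inhibitor p18, CDKN2C (393 and 354 with MS177, 1541 and 1484 in DMSO), and the death receptor FAS (531 and 745 with MS177, 1565 and 1761 in DMSO).

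Among 28 tested BCL2 family and death receptor genes 4 were at least 2-fold higher in both and 2 lower (FAS and TNFSF10), against 4.85% and 5.27% of all genes. The high ones were death activators of the BH3-only kind and a TRAIL receptor. HRK stood at 941 and 841 normalized counts with MS177, against 30.1 and 25.5 in DMSO, 32.0-fold higher on average (adjusted p = 0.124, limma; 0.00112 in the joint fit). BBC3, the protein PUMA, stood at 974 and 767 with MS177, against 85.3 and 117 in DMSO, and PMAIP1, the protein NOXA, at 556 and 651 with MS177, against 90.3 and 139.8 in DMSO. The TRAIL receptor TNFRSF10B stood at 4099.8 and 8390.2 with MS177, against 2007 and 1958 in DMSO, whereas the ligand TNFSF10 stood at 119.5 and 54.3 with MS177, against 263 and 297 in DMSO. BCL2 and BCL2L1, inhibitors of apoptosis, differed in pattern, BCL2 (176 and 233 with MS177, 320.2 and 317 in DMSO) lying lower in both MS177 libraries and BCL2L1 (10424 and 7091 with MS177, 7988 and 8564 in DMSO) not. BCL2L1 had its MS177 values on both sides of DMSO.

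Genes of the integrated stress response were high in both libraries in large part. In that response, phosphorylation of eIF2 slows translation and lets the factor ATF4 be made, which then induces CHOP (DDIT3) and genes of amino acid supply. Of 37 tested ATF4 and CHOP genes 18 were at least 2-fold higher in both MS177 libraries and 1 lower, against 4.85% and 5.27% of all genes, and 30 were higher in both by some amount. The median log2 ratios were 1.31 in MS177 replicate 1 and 1.86 in replicate 2, with a median exon length of 4276 bases.

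DDIT3 (hg38 chromosome 12, 57516588 to 57521737) stood at 40175 and 12434 normalized counts with MS177, against 528 and 582 in DMSO, 72.4-fold over the DMSO mean in replicate 1 and 22.4-fold in replicate 2, with a log2 difference of 5.28 ± 0.62 (SE; limma adjusted p = 0.125). The MS177 libraries thus differed 3.23-fold from each other, and the lower was still far above DMSO. DDIT3 overlaps a gene on the opposite strand. ATF3, a stress-induced repressor, stood at 5124 and 6781 with MS177, against 541 and 538 in DMSO, and ATF4 itself at 27892 and 16608 with MS177, against 8558 and 9552 in DMSO. CHAC1, which breaks down glutathione, stood at 2267 and 2733 with MS177, against 177 and 192 in DMSO, and TRIB3, a pseudokinase that restrains ATF4, at 21669.7 and 17629 with MS177, against 2737 and 2959 in DMSO. PPP1R15A, the subunit that removes phosphate from eIF2, stood at 4279 and 4130.3 with MS177, against 425 and 462 in DMSO.

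Hormones and amino acid supply genes of this response were high too. INHBE, an activin subunit, stood at 1117 and 1979 normalized counts with MS177, against 67.7 and 51.0 in DMSO. FGF21, a metabolic hormone, stood at 155 and 84.4 with MS177, against 0.836 and 1.02 in DMSO, where the DMSO values are 2 reads in all. Its ratio by reads per library depth was 127 (95% exact interval 34.8 to 1057, counting error only). The asparagine synthetase ASNS stood at 12557 and 8909 with MS177, against 1589 and 1765 in DMSO, and SLC7A11, the cystine transporter, at 2134 and 3516 with MS177, against 635 and 666 in DMSO.

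Not every member was high. STC2, stanniocalcin, which is also a target of the estrogen receptor, stood at 26739 and 33575 with MS177, against 79561 and 71887 in DMSO. The oxidase ERO1A stood at 884 and 1388 with MS177, against 2597 and 2588 in DMSO. VEGFA (2371 and 7106 with MS177, 1482 and 1444 in DMSO) and SLC7A1 (2087 and 7651 with MS177, 2879.5 and 2359 in DMSO), an angiogenic factor and an arginine transporter, were high in MS177 replicate 2 above all. ALDH18A1, of proline synthesis, and CTH, of cysteine synthesis, each had 1 MS177 value under and 1 above both DMSO values.

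The composite element TGATGNAA, on which ATF4 binds with a C/EBP partner such as CHOP, occurs upstream of CHAC1, FGF21 and ATF3. Stretches of RefSeq, GRCh38.p14, are shown for these 3 because the element was found in them, with the element on either strand in capitals. They lie at chr15:40953226-40953305, plus strand (CHAC1), chr19:48755434-48755513, plus strand (FGF21) and chr1:212565180-212565259, plus strand (ATF3).
CHAC1: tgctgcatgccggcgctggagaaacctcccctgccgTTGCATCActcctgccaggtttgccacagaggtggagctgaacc
FGF21: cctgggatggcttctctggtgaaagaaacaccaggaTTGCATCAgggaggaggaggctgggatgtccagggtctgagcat
ATF3: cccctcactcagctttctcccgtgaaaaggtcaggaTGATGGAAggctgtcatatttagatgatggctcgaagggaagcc

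Of 30 promoters of the list with an entry 6 (20%) held TGATGNAA on either strand, against 202 of 11531 tested genes (1.75%). Of the genes at least 2-fold higher in both MS177 libraries 32 of 533 (6.004%) held it, and among those at least 2-fold lower 9 of 621 (1.45%). Known ATF4 and CHOP genes make up the list, so its share describes the list and not the response to MS177. Part of its members also count among the 2-fold higher genes. DDIT3, TRIB3 and SESN2 had no such letters within the window.

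Aminoacyl-tRNA synthetases, enzymes that charge tRNA and include known ATF4 targets, were high in part. Of 20 tested genes 6 were at least 2-fold higher in both MS177 libraries and 0 lower (4.85% and 5.27% of all genes), and 10 passed as higher in the joint fit. WARS1 stood at 34519.8 and 35076 normalized counts with MS177, against 4954 and 4947 in DMSO, 7.03-fold higher on average, with near-equal MS177 replicates. TARS1 stood at 16080.3 and 17661 with MS177, against 4774 and 5049.6 in DMSO, and GARS1 at 29479 and 30981 with MS177, against 9529 and 9379 in DMSO. QARS1 (8405 and 6796 with MS177, 8534 and 8654 in DMSO) and HARS1 (4322 and 3804 with MS177, 4756 and 4717 in DMSO) lay a little under DMSO in both MS177 libraries.

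Endoplasmic reticulum chaperones and degradation genes, which the ATF6 and XBP1 branches of the unfolded protein response govern, were at least 2-fold higher in both MS177 libraries in 5 of 30 tested genes and lower in 0 (4.85% and 5.27% of all genes). HSPA5, the chaperone BiP, stood at 124542 and 127966 normalized counts with MS177, against 41772 and 43179 in DMSO. HERPUD1, a membrane protein of degradation, stood at 6119 and 6334 with MS177, against 1018 and 991 in DMSO, and the sensor ATF6 at 6779 and 7235 with MS177, against 2478 and 2319 in DMSO. In these 3 the MS177 replicates differed little from each other. XBP1 stood at 46402 and 44626 with MS177, against 36750.4 and 41021 in DMSO, and the further folding factors CALR (51666 and 29397 with MS177, 43414 and 47151 in DMSO) and PDIA4 (3779 and 5394 with MS177, 7346 and 7928 in DMSO) did not share the direction.

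Cytosolic heat shock genes were mixed. Of 22 tested genes 0 were at least 2-fold higher in both MS177 libraries and 1 lower (4.85% and 5.27% of all genes), by any amount 4 were higher and 12 lower, and the joint fit passed 4 as higher and 3 as lower (8.51% and 9.48% of all genes), with median log2 ratios of -0.29 and -0.44. The higher ones were HSPA4, DNAJB4, CRYAB and HSF1. HSF1, the factor over these genes, stood at 8891 and 6995 with MS177, against 4489 and 4679 in DMSO, and the small chaperone CRYAB at 1636 and 765 with MS177, against 295 and 388 in DMSO. HSPA8, the constitutive HSP70, was the gene at least 2-fold lower, at 30727 and 29452 normalized counts with MS177, against 71793 and 73395 in DMSO. HSPA1A, the inducible HSP70, stood at 3243 and 3263 with MS177, against 6143 and 6391 in DMSO, and the HSF1 target DNAJB1 at 2457 and 2567 with MS177, against 3311 and 3496 in DMSO. HSPA1A has a near-identical copy, HSPA1B, so its reads are uncertain. HSP90AA1 stood at 117570.0 and 34949.9 with MS177, against 93320.3 and 105998 in DMSO, with replicate 1 above and replicate 2 under DMSO.

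NRF2 targets, the antioxidant genes, were mixed. Of 23 tested genes 3 were at least 2-fold higher in both MS177 libraries and 0 lower (4.85% and 5.27% of all genes), by any amount 8 were higher and 3 lower, and the joint fit passed 4 as higher and 0 as lower. The 3 high ones were SLC7A11, also an ATF4 target, and the aldo-keto reductases AKR1C1 and AKR1C3, both at low counts, as in AKR1C3 (58.6 and 42.2 with MS177, 10.0 and 5.10 in DMSO). AKR1C genes share sequence, so their split is uncertain. The ferritin chains FTH1 (245753 and 81989 with MS177, 43564 and 48453 in DMSO) and FTL (12984 and 5831 with MS177, 2782 and 3254 in DMSO), which store iron, were higher in both MS177 libraries but by less than 2-fold in replicate 2. The defining targets HMOX1 (246 and 266 with MS177, 244 and 289.9 in DMSO) and GCLM (681 and 511 with MS177, 507 and 515 in DMSO) had MS177 values that overlapped DMSO.

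Of 8 tested aryl hydrocarbon receptor targets 3 were at least 2-fold higher in both MS177 libraries and 0 lower (4.85% and 5.27% of all genes). CYP1A1, the enzyme most used as a readout of this receptor for planar aromatic compounds, stood at 383 and 578 normalized counts with MS177, against 46.8 and 40.8 in DMSO. AHRR, the receptor's repressor, stood at 85.6 and 146 with MS177, against 10.9 and 1.02 in DMSO, and the receptor AHR itself at 2721 and 6179.8 with MS177, against 1041 and 1001 in DMSO. CYP1B1, another target, stood at 2180.0 and 3074 with MS177, against 2689.7 and 2645 in DMSO, one MS177 value under and one above DMSO. In the 3 high genes MS177 replicate 2 was the higher library.

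NF-kB, cytokine and chemokine genes gave 6 of 23 at least 2-fold higher and 0 lower (4.85% and 5.27% of all genes). LCN2, an iron-binding lipocalin of inflamed epithelium (hg38 chromosome 9, 128149071 to 128153455), stood at 2009 and 744 normalized counts with MS177, against 15.05 and 8.17 in DMSO. That is 173-fold over the DMSO mean in replicate 1 and 64.1-fold in replicate 2, with a log2 difference of 5.42 ± 0.55 (SE; limma adjusted p = 0.124). IRF1, an interferon regulatory factor, stood at 809 and 659 with MS177, against 98.7 and 114 in DMSO, and TNF at 142 and 102 with MS177, against 16.7 and 12.2 in DMSO. By contrast NFKBIA, the NF-kB feedback inhibitor, stood at 1631 and 1225 with MS177, against 1461 and 1649.5 in DMSO, and the adhesion gene ICAM1 at 63.3 and 191 with MS177, against 130.4 and 154 in DMSO. The MS177 values of NFKBIA overlapped those of DMSO, and the MS177 values of ICAM1 lay on both sides of DMSO.

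Growth factor ligands were high in places. Of 14 EGF family genes 4 were at least 2-fold higher in both MS177 libraries and 0 lower (4.85% and 5.27% of all genes). AREG, amphiregulin, stood at 48572 and 14891 normalized counts with MS177, against 2268 and 2699.9 in DMSO, and HBEGF, the heparin-binding ligand, at 1071 and 998 with MS177, against 122 and 133 in DMSO. The MS177 replicates agree for HBEGF and differ 3.26-fold for AREG. NRG3, a neuregulin, stood at 50.4 and 57.3 with MS177 and at 0 in both DMSO libraries, at least 16.5-fold higher in each MS177 library against a floor of 3 reads per library. The receptor EGFR stood at 755 and 3053 with MS177, against 1303 and 1046 in DMSO, on both sides of DMSO, and ERBB4 at 211 and 654 with MS177, against 1044 and 894 in DMSO, under DMSO in both libraries.

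Of 18 tested TGF-beta family genes 5 were at least 2-fold higher in both and 0 lower (4.85% and 5.27% of all genes). GDF15, the stress hormone that acts on appetite (hg38 chromosome 19, 18374731 to 18389176), stood at 9373 and 6297 normalized counts with MS177, against 188 and 261 in DMSO, 34.9-fold higher on average with a log2 difference of 4.98 ± 0.35 (SE; limma adjusted p = 0.124). TGFB1 stood at 370.4 and 342 with MS177, against 107 and 91.9 in DMSO, and FSTL3, which binds activins, at 3130.5 and 1412 with MS177, against 559 and 585 in DMSO. SMAD6, an inhibitor of the pathway, stood at 151 and 222 with MS177, against 508 and 428 in DMSO. GDF15 is also a known target of CHOP.

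MYC (hg38 chromosome 8, 127735434 to 127741434) stood at 2266 and 4160.4 with MS177 and 2004 and 2111 in DMSO, near vehicle in replicate 1 and higher in replicate 2 (adjusted p = 0.474, limma). Of 39 MYC and ribosome biogenesis genes 0 were at least 2-fold apart in either direction in both libraries. NCL, the nucleolar protein nucleolin, stood at 25969 and 20628 with MS177, against 24610.3 and 24672 in DMSO, and NPM1, nucleophosmin, at 55545 and 43859.7 with MS177, against 47722 and 54505 in DMSO.

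Hormone receptors and luminal transcription factors differed much between the MS177 libraries. Of 20 tested genes 1 (ELF3) was at least 2-fold higher in both and 1 (ELF5) lower, near the 4.85% and 5.27% of all genes. By some amount 2 lay over and 11 under both DMSO libraries, against 27.5% and 28.2% of all genes. The estrogen receptor ESR1 stood at 1330.2 and 2319.9 normalized counts with MS177, against 5083 and 4018 in DMSO, and the progesterone receptor PGR at 2738 and 10089 with MS177, against 16559 and 13016 in DMSO. PGR was 3.68-fold higher in MS177 replicate 2 than in replicate 1, with a ratio to the DMSO mean of 0.185 in replicate 1 and 0.682 in replicate 2. FOXA1, the pioneer factor of the estrogen receptor, stood at 3104 and 8061 with MS177, against 10883 and 11061 in DMSO, and the prolactin receptor PRLR at 12032 and 38310.2 with MS177, against 77037 and 61686 in DMSO. ESR1 passed in the joint fit (adjusted p = 0.0250, limma), and PGR did not (adjusted p = 0.134, limma). The list has a median exon length of 6005 bases, beside 4355 for all genes, and genes of long exon length read low in MS177 replicate 1. With values centred on exon length, the median log2 ratios of the list were -0.73 in MS177 replicate 1 and -0.44 in replicate 2, beside -0.92 and -0.31 without it. Then 2 genes in place of 1 were at least 2-fold lower in both.

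Of 31 estrogen receptor targets 5 were at least 2-fold lower and 2 higher in both MS177 libraries (5.27% and 4.85% of all genes). By any amount 17 were lower and 7 higher, against 28.2% and 27.5% of all genes. The joint fit passed 11 as lower and 4 as higher (9.48% and 8.51% of all genes). Their median exon length is 6123 bases, and the median log2 ratios of -0.54 and -0.55 were -0.43 and -0.66 with values centred on it. IGFBP5, a binder of insulin-like growth factors, stood at 2857 and 6003 normalized counts with MS177, against 29122 and 21616 in DMSO, and CELSR2, a cadherin, at 199 and 788 with MS177, against 4126 and 1764 in DMSO. RET, a receptor kinase, stood at 64.5 and 82.4 with MS177, against 252 and 213 in DMSO. TFF1, the classical target, stood at 257 and 75.4 with MS177, against 227 and 218 in DMSO, and GREB1, another, at 4427 and 13147 with MS177, against 15311 and 11919 in DMSO. Each of TFF1 and GREB1 had 1 MS177 library near or above DMSO and 1 far under it. The 2 high genes were AREG and the keratin KRT13 (304 and 169 with MS177, 66.1 and 51.0 in DMSO).

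Cholesterol genes were low more than high. Of 28 tested genes of synthesis and uptake 6 were at least 2-fold lower in both MS177 libraries and 0 higher (5.27% and 4.85% of all genes). By some amount 20 lay under both DMSO libraries, against 28.2% of all genes. The median log2 ratios of -0.88 and -0.95 were close to each other. INSIG1, which holds SREBP in the endoplasmic reticulum and is its target, stood at 478 and 416 normalized counts with MS177, against 1770.0 and 2033 in DMSO. SQLE, the squalene epoxidase, stood at 1267 and 2072 with MS177, against 5112 and 5261 in DMSO, and ACAT2, which makes acetoacetyl-CoA, at 1171 and 729 with MS177, against 2634 and 2684 in DMSO. In all 3 genes the MS177 libraries did not overlap the DMSO libraries.

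Fatty acid synthesis gave 5 of 21 at least 2-fold lower and 0 higher (5.27% and 4.85% of all genes). FASN, the fatty acid synthase, stood at 10797 and 27139.7 normalized counts with MS177, against 61147 and 52769 in DMSO, and SCD, the desaturase, at 8244 and 18517 with MS177, against 47359 and 46308 in DMSO. ELOVL6, an elongase, stood at 345 and 657 with MS177, against 1553 and 1733 in DMSO, and SREBF1, the factor over these genes, at 3510.2 and 3724 with MS177, against 6274 and 6478 in DMSO. In FASN and SCD MS177 replicate 1 was again the lower library.

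Of 17 tested polyamine genes 3 were at least 2-fold higher in both MS177 libraries and 1 lower (4.85% and 5.27% of all genes), the high ones on the side of breakdown and at the start of synthesis. SAT1, which acetylates spermidine for export, stood at 12060.2 and 4713 normalized counts with MS177, against 884 and 1009.5 in DMSO. SMOX, the spermine oxidase, stood at 307 and 217 with MS177, against 13.4 and 20.4 in DMSO, and ODC1, which starts synthesis, at 5782 and 5328 with MS177, against 1772 and 1899 in DMSO. AMD1, which supplies the aminopropyl donor, was the low one, at 1174 and 1361 with MS177, against 3135 and 3494 in DMSO.

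Of 30 glycolysis and hypoxia genes 2 were at least 2-fold higher and 3 lower in both, near the 4.85% and 5.27% of all genes. LDHA, lactate dehydrogenase, stood at 5717 and 6257 normalized counts with MS177, against 15749 and 16326 in DMSO, and TXNIP, which curbs glucose uptake, at 4291 and 7431 with MS177, against 837 and 745 in DMSO. Of 37 lysosome and autophagy genes 3 were at least 2-fold higher and 0 lower, beside 4.85% and 5.27% of all genes. By any amount 22 of the 37 were higher and 6 lower in both MS177 libraries, against 27.5% and 28.2% of all genes. The joint fit passed 10 as higher and 1 as lower (8.51% and 9.48% of all genes). LAMP3, a lysosomal protein inducible by stress, stood at 1529.5 and 3780.4 with MS177, against 156 and 139 in DMSO, and MAP1LC3B, the autophagosome protein LC3, at 10937 and 10429 with MS177, against 2266 and 2395 in DMSO. CTSD, the major lysosomal protease of these cells, stood at 94569 and 63235 with MS177, against 70768 and 65680.0 in DMSO, so that the groups overlap.

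Genes that PRC2 is known to silence went both ways. Of 46 tested developmental transcription factors marked by polycomb 6 were at least 2-fold higher and 3 lower in both MS177 libraries (4.85% and 5.27% of all genes). The list has 96 genes, of which 48 are in the table. By any amount 13 were higher and 21 lower, against 27.5% and 28.2% of all genes, with median log2 ratios of -0.29 and -0.35. The joint fit passed 5 of 43 as higher and 9 as lower (8.51% and 9.48% of all genes). FOXC1 stood at 1226 and 796 normalized counts with MS177, against 263 and 273 in DMSO. TBX2 stood at 1445 and 1245 with MS177, against 451 and 465 in DMSO, and LHX2, a low one, at 51.6 and 51.3 with MS177, against 280.1 and 222 in DMSO. All 3 are developmental regulators with their MS177 replicates on the same side of DMSO. LHX5 stood at 11.7 and 13.1 with MS177 and at 0 in both DMSO libraries, at least 3.83-fold higher in each MS177 library against a floor of 3 reads per library. Of 22 tested HOX genes 2 were at least 2-fold higher and 1 lower, near the shares of 4.85% and 5.27% over all genes, HOXB9 standing at 193 and 129 with MS177, against 16.7 and 29.6 in DMSO.

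Interferon-stimulated genes gave 1 of 31 at least 2-fold higher and 2 lower, near the 4.85% and 5.27% of all genes, with median log2 ratios of -0.86 and -0.38. By any amount 6 were higher and 18 lower in both MS177 libraries, against 27.5% and 28.2% of all genes. The joint fit passed 1 as higher and 4 as lower (8.51% and 9.48% of all genes). OAS3, which senses double-stranded RNA, stood at 256 and 1241 normalized counts with MS177, against 5412 and 4433 in DMSO, and ISG20, an exonuclease, at 1233 and 323 with MS177, against 72.7 and 58.2 in DMSO. The defining member ISG15 (128 and 35.2 with MS177, 57.7 and 55.1 in DMSO) did not separate. Of 17 MHC class I genes 0 were 2-fold apart in both libraries. HLA-B stood at 45202 and 22097 with MS177, against 12017 and 13892 in DMSO, and B2M, the shared light chain, at 12142 and 7161 with MS177, against 7807 and 9297 in DMSO.

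Part of the replication-dependent histone genes was higher in both MS177 libraries. Their transcripts normally end in a stem-loop without a poly(A) tail, and these libraries took polyadenylated RNA. Of 36 tested genes 14 were at least 2-fold higher in both MS177 libraries and 0 lower (4.85% and 5.27% of all genes), and by any amount 22 were higher and 3 lower, with median log2 ratios of 1.35 and 1.46. H4C8 stood at 4058 and 2891 normalized counts with MS177, against 422 and 401 in DMSO, 8.44-fold higher on average (adjusted p = 0.124, limma). H2BC15 stood at 1116 and 959 with MS177, against 126 and 144 in DMSO, and H1-2, a linker histone, at 15971 and 4195 with MS177, against 1217 and 1468 in DMSO. H2AC18 stood at 5419 and 474 with MS177 and at 0 in both DMSO libraries, at least 155-fold higher in each MS177 library against a floor of 3 reads per library, but it has a near-identical copy and its reads are uncertain. Many histone genes are near-copies of each other, so how reads were split among them is uncertain too.

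Among the lists, those of ribosomal proteins, the proteasome and the nuclear respiratory chain differed most between the MS177 libraries. Of 78 cytosolic ribosomal protein genes 0 were 2-fold apart from DMSO in both MS177 libraries, and the median log2 ratio was 1.76 in replicate 1 and -0.12 in replicate 2. RPS19 stood at 88126 and 17642 normalized counts with MS177, against 17713 and 21388 in DMSO. Together these genes made up 14.97% and 5.69% of the normalized counts of the MS177 libraries, and 5.48% and 6.31% of the DMSO libraries. MS177 replicate 2 was close to DMSO in these genes and replicate 1 was not. Their median exon length was 3056 bases, that of the respiratory chain list 3336 and that of the proteasome list 4490, beside 4355 for all genes. After centring on merged exon length, which is not the length of the transcripts, the ribosomal protein medians were 1.47 and -0.03.

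Proteasome subunits had median log2 ratios of 0.90 in MS177 replicate 1 and -0.16 in replicate 2, and nuclear-encoded respiratory chain genes 0.91 and -0.31. Neither list had a member 2-fold apart in both libraries. Mitochondrially encoded transcripts, the list with the shortest median exon length (784 bases) of those with a length, ran the other way in replicate 1, with medians of -0.95 and -0.08. The PSMB3 subunit of the proteasome stood at 20375 and 4379 normalized counts with MS177, against 5933 and 7228 in DMSO, and MT-ND2, a subunit of complex I, at 56145 and 111483 with MS177, against 207325 and 212420.0 in DMSO. Cereblon (CRBN), a substrate receptor used by many degraders, stood at 1456 and 1463 with MS177, against 921 and 1056 in DMSO, with 0 of 10 genes of its ligase list 2-fold apart in both.

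**Figure D4:**
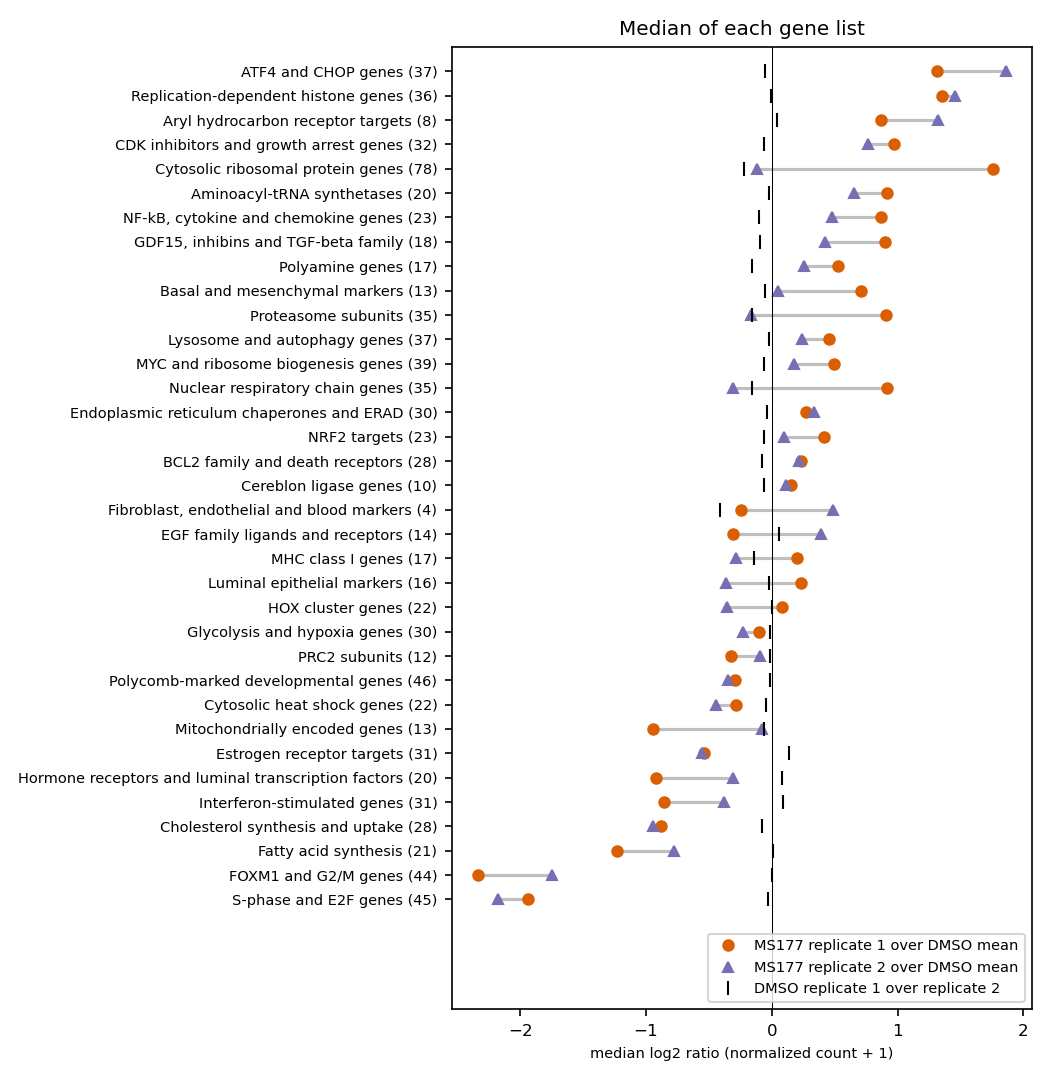
Median log2 ratio (x axis) over the tested members of 35 gene lists (y axis, number of tested members in brackets) in MS177 replicate 1 (circle) and MS177 replicate 2 (triangle) over the DMSO mean, with DMSO replicate 1 over replicate 2 (tick) for scale. The ribosomal protein, proteasome and respiratory chain lists have their circles and triangles far apart, and the S-phase, cholesterol and histone lists have them closer.

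Single genes show the gap too, not always in the order of length. Those below are protein-coding genes with a mean of at least 500 normalized counts, chosen after their values were seen. They showed no exon overlap with another listed gene found by name in the annotation, and overlap with other genes was not looked at. LRRC75A stood at 6321 and 138 normalized counts with MS177, against 109 and 96.0 in DMSO. TMSB10, a short actin-binding peptide, stood at 21120.0 and 3331 with MS177, against 6529.9 and 7802 in DMSO, with an exon length of 496 bases. LRBA, a vesicle protein with 16657 bases of exons, stood at 847 and 4419.7 with MS177, against 4531 and 3519.5 in DMSO. TRIO, an exchange factor with 17500 bases, stood at 815 and 4358 with MS177, against 2512 and 1930.2 in DMSO. FBXL14, a ubiquitin ligase subunit with a short exon length of 2287 bases, had the largest ratio in favour of replicate 2, at 104 and 835 with MS177, against 706 and 677 in DMSO. PCDHB8, a protocadherin with 2740 bases, stood at 121 and 794 with MS177, against 1868 and 1546 in DMSO, so that these 2 genes go against the trend with length. For LRBA, MS177 replicate 2 lay among the DMSO values and replicate 1 did not.

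The largest ratios between the MS177 libraries belonged to transcripts that share sequence with others. AC011511.4 stood at 1717 and 0 normalized counts with MS177, against 0 and 15.3 in DMSO, and AL139011.2 at 2.34 and 1193 with MS177, against 538 and 187 in DMSO, each overlapping another gene on the same strand. Of the genes that share exons on the same strand 14.2% differed at least 4-fold between the MS177 libraries, against 8.76% of those overlapping on the opposite strand and 6.54% of those without overlap. How the authors' counting divided reads among overlapping genes was not tested here.

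By the separation of both MS177 libraries from both DMSO libraries, the highest genes with a mean of at least 50 normalized counts included DDR2, a collagen receptor, at 1041 and 1427 normalized counts with MS177, against 22.6 and 20.4 in DMSO. MAP1B, a microtubule protein of neurons, stood at 3958 and 2071 with MS177, against 61.9 and 61.2 in DMSO, and KLHDC7B at 500.5 and 877 with MS177, against 10.0 and 7.15 in DMSO. CNTN4, an adhesion protein of axons, stood at 69.1 and 199 with MS177 and at 0 in both DMSO libraries, at least 22.6-fold higher in each MS177 library against a floor of 3 reads per library. ARHGAP9 (260.2 and 373 with MS177, 1.67 and 1.02 in DMSO), SCEL (127 and 169 with MS177, 0 and 2.04 in DMSO), MOV10L1 (236 and 78.4 with MS177, 0.836 and 1.02 in DMSO) and CNN1 (171 and 85.4 with MS177, 1.67 and 1.02 in DMSO) rest on 2 or 3 DMSO reads each. The ratio by reads was 233 for ARHGAP9 (95% exact interval 79.2 to 1132, counting error only) and 90.7 for CNN1 (30.6 to 443).

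At the other end, FAM111B, a protease linked to replication, stood at 229.7 and 369.9 normalized counts with MS177, against 3643 and 3551 in DMSO, and WDR76 at 147 and 213 with MS177, against 1591 and 1548 in DMSO. PLA2G4A, a phospholipase, stood at 11.7 and 26.1 with MS177, against 286 and 214 in DMSO. INPP5J, a lipid phosphatase, stood at 139 and 109.6 with MS177, against 1776 and 1157 in DMSO. IKBKE, a kinase of innate immunity, stood at 18.8 and 29.1 with MS177, against 722 and 285 in DMSO, and ARPIN, an inhibitor of the Arp2/3 complex, at 72.7 and 46.2 with MS177, against 1785 and 602 in DMSO. In IKBKE and ARPIN the DMSO replicates were themselves more than 2-fold apart. AC019257.8 stood at 0 in both MS177 libraries and at 199.8 and 17.4 in DMSO, and AC087632.2 and AL161891.1 were the remaining low ones.

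The same DMSO libraries stand beside MS177-N1 and MS177-N2, control compounds named after MS177, and C24, an EZH2 inhibitor, each at 2.5 uM for 48 h in T47D. MS177-N1 has 1 usable library, since the second treated column of its table repeats a library of MS177-N2. Tables were normalized separately, so each value below is a ratio to the DMSO mean of its own table, and differences between the compounds were not tested. FOXM1 had ratios of 0.258 and 0.315 with MS177, 0.997 with MS177-N1, 0.997 and 0.982 with MS177-N2 and 0.911 and 0.955 with C24. RRM2 had 0.107 and 0.123 with MS177, 1.02 with MS177-N1, 0.880 and 0.873 with MS177-N2 and 1.05 and 0.978 with C24. Both genes had ratios far under 1 with MS177 and near 1 with the other compounds.

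DDIT3 had ratios of 72.4 and 22.4 with MS177, 1.01 with MS177-N1, 1.02 and 1.05 with MS177-N2 and 1.19 and 1.10 with C24. GDF15 had 41.7 and 28.0 with MS177, 0.946 with MS177-N1, 0.924 and 0.962 with MS177-N2 and 1.14 and 1.33 with C24. CYP1A1 had 8.74 and 13.2 with MS177, 1.55 with MS177-N1, 0.467 and 0.721 with MS177-N2 and 2.21 and 2.11 with C24. For CYP1A1 the C24 libraries were also above DMSO, both by about the same ratio.

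A few of the low genes were low with MS177-N2 as well. ARPIN had ratios of 0.0609 and 0.0387 with MS177, 1.21 with MS177-N1, 0.170 and 0.180 with MS177-N2 and 1.73 and 1.70 with C24. IKBKE had 0.0372 and 0.0579 with MS177, 1.21 with MS177-N1, 0.237 and 0.231 with MS177-N2 and 1.24 and 1.38 with C24. INPP5J had 0.0951 and 0.0747 with MS177, 1.09 with MS177-N1, 0.379 and 0.364 with MS177-N2 and 1.10 and 1.25 with C24. MS177 had the lowest ratios of the compounds in each of these 3 genes.

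**Figure D5:**
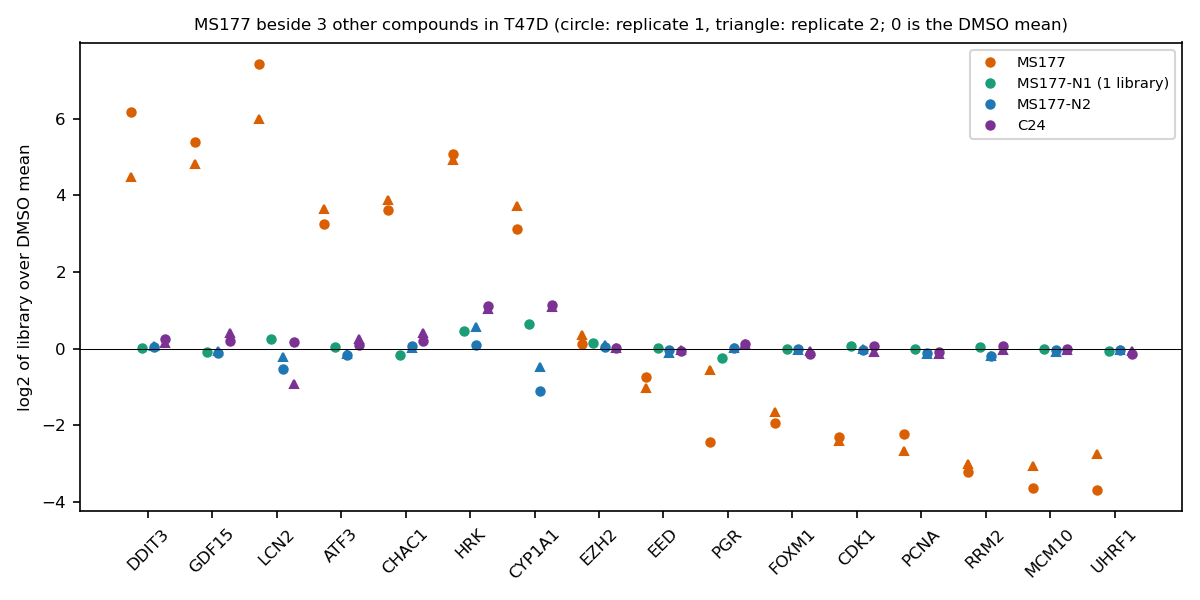
Log2 ratio to the DMSO mean (y axis) of 16 genes (x axis) in each T47D library given MS177, MS177-N1 (1 library), MS177-N2 or C24, with 0 as the DMSO mean. The MS177 points lie apart from 0 for most genes and the points of the other compounds lie close to it, with HRK and CYP1A1 above 0 for C24 and CYP1A1 under 0 for MS177-N2.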

How the data were processed

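The authors deposited 1 table per comparison with log2 values per gene, made from RSEM gene estimates and scaled with DESeq on hg38, per the submitters' processing notes. The aligner, the annotation and the handling of strand are not given in the sources used here. The 4 columns were tied to samples by their titles. The lowest value of the table (m) marks 0 reads, and normalized counts were recovered from each log2 value v of the authors as (2 to the power v minus 2 to the power m), squared, over 2 to the power v. Up to 1000 reads, every recovered value was within 0.05 of a whole read. Python 3.11.15, numpy 2.4.6 and pandas 2.3.3 were used.

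The main test was limma 3.58.1 in R 4.3.3 (mean trend, robust, two-sided) on the deposited log2 values of genes more than 1 unit above the lowest value in at least 2 libraries, with Benjamini-Hochberg adjustment and a threshold of 0.05. Log2 differences from limma are on this deposited scale, which understates changes of low genes. The test was also run on simulated counts in which both groups varied alike. Here the MS177 libraries vary more than the DMSO libraries, so that run does not show how the test behaves on these data. Separation was described on normalized counts plus 1, over genes with at least 10 in at least 2 libraries: the lowest of one group against the highest of the other, at least 2-fold. LHX5, NRG3, CNTN4 and H2AC18, with 0 reads in DMSO, met this filter through their MS177 libraries alone and could be counted only as higher. Exon length and overlap came from GENCODE release 29 by gene name (17810 of 18573 matched, 95.9%), and promoters from RefSeq. Overlap was sought only among the matched genes, so a gene without overlap may still overlap an unmatched or unlisted one. Intervals and floors (3 reads) cover counting error only.

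Named were the core PRC2 genes, FOXM1 and MYC, up to 4 members per list with the largest separation each way, the 12 most separated genes each way with a mean of at least 50, and genes with the largest gap between MS177 libraries; some of each are given. Other members are named for their known role or as exceptions, after their values were seen. A few genes are not reported here. The members and the 35 lists were chosen with earlier results of these data known. Alternatives covered scaling, filters, pseudocount, fold, model, pairing and leaving out each library.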

Additional observations from a re-analysis of the deposited data

How the results depend on the processing

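Limma passed 0 genes under 8 alternatives of scale, filter and model, including quantile scaling and voom. The joint fit of 9 T47D libraries passed 3126 genes, and array weights, chosen after seeing the data, passed 298 (weights of 0.204 for the MS177 libraries and 4.90 for the DMSO libraries). With the replicate block 916 genes passed. The numbers share no stated batch, and the deviations of same-numbered libraries correlated at -0.317. Both pairs of libraries also differ with exon length, so this correlation cannot decide whether the numbers pair the libraries. The crossed replicate block, also chosen afterwards, passed 1851. Leaving out 1 library passed between 48 and 12477 genes. With 1 MS177 library left, 8717 passed for replicate 2 alone and 12477 for replicate 1 alone. With 1 DMSO library left, 48 passed for replicate 2 alone and 72 for replicate 1 alone. In each such fit the lone library is assumed to vary like the other group.

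The count of genes at least 2-fold higher in both MS177 libraries (842) was 547 with at least 50 normalized counts, 1713 at 1.5-fold and 240 at 4-fold, and ranged from 1061 to 3255 without 1 library. The count lower (916) was 1874 at 1.5-fold and 123 at 4-fold, and ranged from 1058 to 3335 without 1 library. The count differing between the MS177 libraries (6519) was 10528 at 1.5-fold and 1427 at 4-fold. Over the 16722 genes with a known length it was 5039 after centring on exon length, chosen after seeing the data, against 6237 before. CPM scaling gave 689 higher and 1054 lower. The log2 difference of EZH1 (-0.04) ranged from -0.27 to 0.19 with 1 library left out, turning positive without MS177 replicate 1, and was 0.0596 after length centring, in limma. The median log2 ratios of the endoplasmic reticulum chaperone and luminal marker lists in MS177 replicate 1, 0.27 and 0.23, turned to -0.09 and -0.13 with CPM scaling. The BCL2 (0.23 to -0.13), MHC class I (0.20 to -0.15), cereblon ligase (0.16 to -0.20) and HOX lists (0.08 to -0.27) turned too. The ribosomal protein median in MS177 replicate 1, 1.76, was 1.40 with CPM scaling and 1.00 with quantile scaling. The cause of these shifts was not tested. With 2 libraries a group, their number limits the precision of every comparison.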
